A study of Homo sapiens with 24 samples.

Results

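The comparison described here sets resting THP-1 macrophages with a knockdown of CES1 (CES1KD) against resting THP-1 macrophages without it (WT), 4 libraries against 4, in a study of 24 libraries in 6 groups. THP-1 is a human monocytic leukaemia cell line, and in both groups the monocytes were turned into macrophages with 20 nM PMA, a phorbol ester, for 72 hours and then left unstimulated, the state called M0. The CES1KD cells carry a stable short-hairpin RNA against CES1 that was delivered by lentivirus. The labels name the comparison cells WT, the series text speaks of control cells, and no source used here says if these held a vector of their own, so loss of CES1, the vector and the choice of line cannot be told apart. The other 4 groups are the same lines after stimulation with interferon gamma (100 ng/ml) plus LPS (1 ug/ml), called M1, or with IL-4 (100 ng/ml), called M2, and they enter only the closing comparison. Levels are FPKM, in which a gene's fragments are divided by its length and by a library size, so they can be set beside each other between genes. Of the 58735 genes in the table, the 11964 with at least 1 FPKM in at least 4 of the 8 M0 libraries were kept. They comprised 10435 protein-coding genes, 289 long intergenic non-coding genes, 332 antisense genes, 583 pseudogenes and 325 of other kinds. At the limit, CAPS and RIC8B were kept with a fourth-highest library at 1.00031 and 1.00086 FPKM, and GAREM2 and AC093512.2 were left out at 0.999741 and 0.999595 FPKM. Among the genes kept, 329 had no CES1KD library at 1 FPKM or more and 225 had no WT library at that level, so these genes passed through 1 group alone and had to differ.

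The product of CES1 is a carboxylesterase, an enzyme that cleaves carboxylic esters of drugs and lipids inside the endoplasmic reticulum and is abundant in liver and in cells of the monocyte lineage. In macrophages it has been studied for its part in the turnover of cholesteryl esters and of glyceryl esters that act as lipid signals. Macrophages sense microbes and nucleic acids, answer with interferons, chemokines and cytokines, remodel the surrounding matrix and digest what they take up in lysosomes, while their promyelocytic precursors fill azurophil granules with serine proteases.

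The 8 libraries held 14881563 to 23750059 fragments on genes, and 98.8 to 99.1% of a library's fragments lay on the genes kept. Across genes, libraries of the same group correlated at r of 0.988 to 0.992 on the log2 scale and libraries of different groups at 0.905 to 0.917, as a description over genes, which are not replicates. On principal component analysis, the axis that separated the groups held 84.3% of the variance. Mitochondrial genes took 1.81 to 2.39% of the fragments in WT libraries and 1.29 to 1.48% in CES1KD libraries, and the 10 most abundant genes took 7.01 to 7.30% and 5.70 to 5.98%. Of 10 macrophage and monocyte markers, 9 passed the filter on low values, with summed levels of 1576 to 1672 FPKM in WT and 1502 to 1684 in CES1KD libraries, and CD68 did not pass. Summed markers of epithelium stayed between 0.0109 and 0.0982 FPKM, of B cells between 1.04 and 1.90, of erythroid cells between 0 and 0.166, of dendritic cells between 1.18 and 1.99, and of fibroblasts between 2.28 and 3.10. The summed level of 8 T and NK cell markers was 55.5 to 69.5 FPKM in WT and 115 to 132 in CES1KD libraries, of which TRAC, a T-cell receptor constant gene, made up 57.0 and 121 on average while CD3D, CD3E and CD3G, which define T cells, did not pass the filter. Of the 8 endothelial markers, 2 passed, PECAM1, which monocytes also carry, at 42.2 and 50.4 FPKM, and ESAM, while CDH5, VWF and KDR did not. Of the 6 megakaryocyte markers only PPBP, which is also a chemokine, passed.

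CES1 was almost absent from the knockdown libraries. The gene (ENSG00000198848) lies on the minus strand of chromosome 16 between bases 55802851 and 55833337 of GRCh38, by the table's own coordinates, which are those of GENCODE 29. It measured 7.64, 6.41, 6.71 and 7.78 FPKM in the WT libraries and 0.104, 0, 0.116 and 0.103 in the CES1KD libraries. No CES1KD library came near the lowest WT library. The log2 difference of FPKM + 1 was -2.91 ± 0.08 (standard error, SE), and permuting the 8 libraries exhaustively (exact permutation test, two-sided) gave p = 0.0286, the smallest possible here. With a pseudocount of 0.1 the log2 difference was -5.38 and with voom on recovered fragments -7.09. Summed over libraries, 1575 fragments in WT stood against 18 in CES1KD cells. Relative to the library sizes behind FPKM, that left 1.06% of the WT level (95% interval 0.626 to 1.68, exact, covering counting error only). A reduction of 85% or more is given in the series text.

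The difference between the lines reached most of the expressed genes, mostly in small steps. With limma on log2(FPKM + 1) and Benjamini-Hochberg adjustment over the genes kept, 8081 of 11964 genes (67.5%) had an adjusted p under 0.05, and genes past that threshold are called changed below. Of these, 4180 (34.9% of the genes kept) were higher and 3901 (32.6%) lower in CES1KD cells. The balance turned with the scaling: rescaling each library to its total fragments gave 3568 higher and 4676 lower genes, and centring each on its median gave 3942 and 4229. The median log2 difference of all genes was 0.0044, so the list medians below can be read against a value near 0. For 62.2% of all genes, 7446, the 4 CES1KD and the 4 WT libraries did not overlap. Counts of this size mean that a call alone sets a gene little apart from its neighbours, and sizes are given throughout. Among the genes named below, IFITM2, IRF1, IFNAR1, CEBPA, TREM2, APOE, RPS27 and DAD1 were no longer called when all 24 libraries shared 1 estimate of the spread. Of the called genes, 58.1% differed by less than 0.5 on the log2 scale. A difference of at least 2-fold was reached by 1092 genes (9.13%), of which 625 were higher and 467 lower. With a pseudocount of 0.1 in place of 1 that count was 1654, and with voom on recovered fragments it was 1729. At least 4-fold were 110 and 73 genes, and at least 8-fold 27 and 19. Of the 3883 genes not called, 2031 had a 95% interval of the difference within 0.25 of 0. The share called rose with level, from 52.6% of genes under 2 FPKM to 90.5% of those above 200. Protein-coding genes were called more often (70.3%, with 3893 higher and 3440 lower) than long intergenic (62.3%), antisense (50.9%) and pseudogenes (48.9%). The labels do not say that the 4 libraries of a group were separate cultures, so the p-values reflect the spread among these 8 samples alone, which may be technical.

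**Figure D1:**
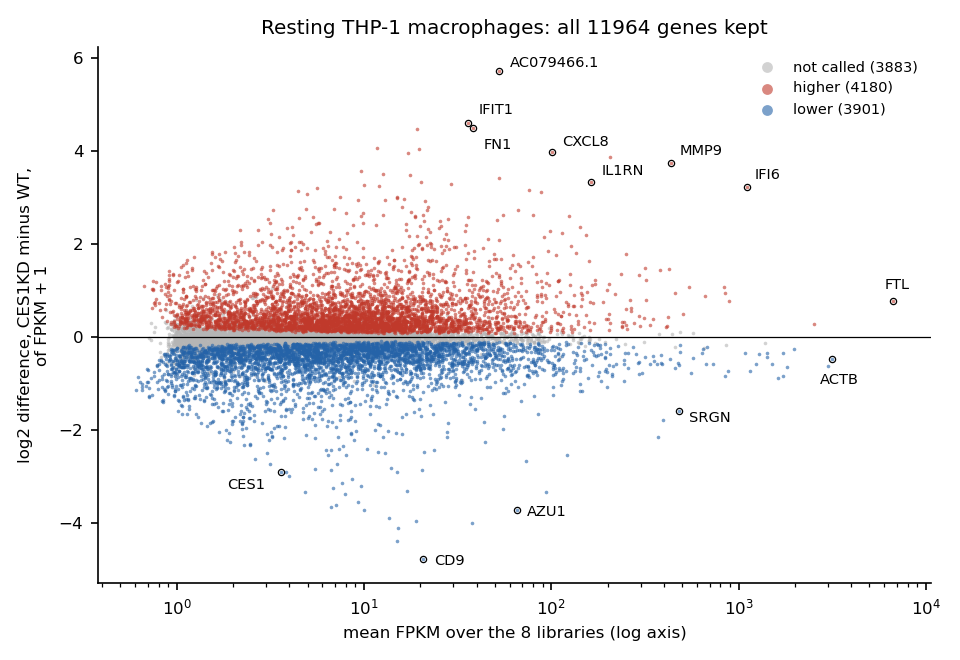
Each point is 1 of the 11964 genes kept, with its mean FPKM over the 8 M0 libraries on a log axis and its log2 difference of FPKM + 1, CES1KD minus WT. Red points are the 4180 genes called higher, blue the 3901 called lower and grey the 3883 not called. Most called genes sit close to 0, and the named genes, from AC079466.1 at 5.72 to CD9 at -4.77, mark the ends.

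Among the 58 gene lists, the antiviral interferon effectors had the highest median difference. In a cell exposed to type I interferon, the receptor activates a complex with STAT2 and IRF9, which binds interferon-stimulated response elements (ISRE) before genes whose products block viral entry, translation and release. IFIT1, which binds viral RNA that lacks a host cap, measured 1.603, 1.52, 2.00 and 2.51 FPKM in WT and 78.3, 61.03, 67.6 and 71.9 in CES1KD libraries. MX1, a GTPase that traps viral nucleocapsids, stood at 0.443, 0.382, 0.456 and 0.441 and at 25.4, 20.1, 22.1 and 24.3. RSAD2 (viperin), which makes a chain-terminating nucleotide, was at 1.17, 1.31, 1.46 and 1.38 and at 43.9, 31.7, 34.4 and 41.3. For all 3 the groups lay far apart with nothing between them. Their log2 differences were 4.61 ± 0.11, 4.06 ± 0.07 and 4.05 ± 0.10 (SE), with limma adjusted p of 4.67e-10, 8.01e-11 and 4.72e-10.

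The promoter sequences below belong to the genes with the largest differences in either direction. The window was the 250 bases before the gene start in the RefSeq table (GRCh38.p14). It was searched on both strands for the ISRE core GAAANNGAA, the GAS element TTCNNNGAA, the NF-kB site GGGNNTTCC, the AP-1 site TGANTCA, the heat shock element GAANNTTC, the antioxidant response element TGACNNNGC and the CRE TGACGTCA. The 6 highest and 6 lowest protein-coding genes with an entry were searched, 12 in all, and the 6 windows that hold a match are shown with the match in capitals. IFIT1 holds 2 ISRE cores, whose first bases lie 115 and 102 bases before the start. CXCL10 holds an ISRE core, an NF-kB site and an antioxidant response element, and RSAD2 an ISRE core. FN1 holds a CRE, CXCL8 an AP-1 site and CTSG, among the lowest genes, an antioxidant response element. No match was found in the windows of MX1, CD9, TAC4, PRTN3, PLPPR3 and AZU1, which says only that these letters are not there. For each gene only its first entry was searched, so any other starts were not covered. The AZU1 window, at bases 827587 to 827836, lies inside the span of 825097 to 832018 that the FPKM data give for the gene. The windows lie at chr10:89392373-89392622 (plus strand), chr4:76023498-76023747 (minus strand), chr2:6865635-6865884 (plus strand), chr2:215436069-215436318 (minus strand), chr4:73740319-73740568 (plus strand) and chr14:24576251-24576500 (minus strand), each written 5' to 3' on the gene's strand:
IFIT1: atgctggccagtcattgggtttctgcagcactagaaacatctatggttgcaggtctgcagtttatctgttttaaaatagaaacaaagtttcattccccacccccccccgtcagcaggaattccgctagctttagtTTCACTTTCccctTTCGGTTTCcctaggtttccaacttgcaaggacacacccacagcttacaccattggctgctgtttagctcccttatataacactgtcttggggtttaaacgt
CXCL10: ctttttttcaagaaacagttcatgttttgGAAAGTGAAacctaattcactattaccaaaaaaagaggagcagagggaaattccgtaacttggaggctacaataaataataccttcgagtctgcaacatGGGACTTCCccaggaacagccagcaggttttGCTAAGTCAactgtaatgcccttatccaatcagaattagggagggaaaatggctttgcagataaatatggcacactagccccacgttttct
RSAD2: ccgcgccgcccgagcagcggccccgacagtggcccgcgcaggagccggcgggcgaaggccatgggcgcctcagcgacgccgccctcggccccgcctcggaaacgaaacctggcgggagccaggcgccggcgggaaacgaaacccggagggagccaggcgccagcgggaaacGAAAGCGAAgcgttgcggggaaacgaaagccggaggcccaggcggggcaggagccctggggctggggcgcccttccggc
FN1: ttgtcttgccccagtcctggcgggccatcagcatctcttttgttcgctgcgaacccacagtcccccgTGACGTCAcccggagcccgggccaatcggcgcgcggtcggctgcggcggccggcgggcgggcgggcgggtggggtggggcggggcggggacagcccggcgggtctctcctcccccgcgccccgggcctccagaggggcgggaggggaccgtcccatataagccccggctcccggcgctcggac
CXCL8: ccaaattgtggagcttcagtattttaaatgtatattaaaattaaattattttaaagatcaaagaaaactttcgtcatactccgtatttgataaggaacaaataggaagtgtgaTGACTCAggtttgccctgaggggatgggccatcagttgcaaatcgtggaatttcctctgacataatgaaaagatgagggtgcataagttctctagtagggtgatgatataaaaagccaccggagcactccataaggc
CTSG: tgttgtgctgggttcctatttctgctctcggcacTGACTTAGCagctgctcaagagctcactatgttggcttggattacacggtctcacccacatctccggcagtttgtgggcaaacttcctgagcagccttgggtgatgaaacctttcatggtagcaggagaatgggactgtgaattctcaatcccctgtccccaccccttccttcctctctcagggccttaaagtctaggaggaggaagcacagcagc

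As a description of the windows, the ISRE core was found in 6.88% of 35116 RefSeq promoters of this length. It was found in 5.61% of the 8426 protein-coding genes kept that had an entry, 12.1% of the 412 that rose at least 2-fold, 7.46% of the 295 that fell at least 2-fold and 5.18% of the 2547 not called. Among the antiviral interferon genes with an entry it was found in 20 of 33 (60.6%). The other 6 motifs were found in 6.57% (GAS), 5.78% (NF-kB), 6.57% (AP-1), 5.78% (heat shock), 10.9% (antioxidant) and 1.65% (CRE) of all promoters. AP-1 was found in 8.25% of the 412 that rose at least 2-fold and in 3.76% of the 8426. For heat shock these shares were 7.28% and 3.88%, and for GAS 5.58% and 5.45%. They were 7.28% and 7.60% for NF-kB, 12.9% and 12.5% for antioxidant, and 3.64% and 3.06% for CRE. A match is a description of the letters and not of a bound site.

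Of 47 antiviral effectors listed, 46 passed the filter, 5 of them through 1 group alone, and 41 were higher, 2 lower and 3 not called, with a median log2 difference of 2.20. Of these, 37 rose at least 2-fold and 0 fell that far. APOBEC3A did not pass the filter. The most abundant was IFI6, a mitochondrial and endoplasmic reticulum protein that blunts viral replication, at 192, 221, 199.9 and 239 FPKM in WT and 1927, 1839, 1992 and 2217 in CES1KD libraries. The groups did not overlap. OASL, OAS2 and OAS3, of the oligoadenylate synthetase family, rose by 3.56, 3.42 and 3.11. IFI44, IFI44L, IFIT3, TRIM22 and EPSTI1, each induced by interferon, rose by 3.302, 3.22, 3.16, 3.26 and 3.503. SIGLEC1, a sialic acid receptor of macrophages, went from a mean of 1.18 ± 0.147 to 33.2 ± 3.54 FPKM (SD, n = 4). The rise was not shared by the whole list. APOBEC3B, a cytidine deaminase, fell by 0.92. SAMHD1, which depletes nucleotides, was not called at 30.0 and 28.5 FPKM, and IFITM2, which shares sequence with its neighbours in the IFITM family, rose by only 0.28.

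ISG15 is a ubiquitin-like protein that is joined to other proteins. It measured 22.2, 21.8, 27.9 and 28.9 FPKM in WT and 388, 331, 388 and 432 in CES1KD libraries, with every CES1KD library far above every WT library. HERC5, the ligase that joins it, rose by 3.03 ± 0.07 from 0.840 ± 0.0849 FPKM, while USP18, the protease that removes it, rose by 0.84 and UBA7, its activating enzyme, was not called at 25.03 and 25.1 FPKM. Of the 7 members of this system, 1 of which passed through 1 group alone, 6 were higher and 0 lower (median 1.54).

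Among the genes that start the response, the RNA and DNA sensors named here rose, and an adaptor of each kind fell. DDX58 (RIG-I) and IFIH1 (MDA5), helicases that recognise viral RNA, rose by 2.79 and 1.99, and CGAS, which recognises cytosolic DNA, by 0.82. TMEM173 (STING), the adaptor that relays the cGAS signal, measured 43.6, 41.3, 38.1 and 40.1 FPKM in WT and 6.83, 6.92, 6.72 and 6.59 in CES1KD libraries. Every CES1KD library lay far below the lowest WT library, a log2 difference of -2.43 ± 0.04 (limma adjusted p = 1e-10). MAVS, the adaptor of the RNA sensors, fell by 0.55. Of 20 sensors and adaptors listed, 14 passed, with 12 higher, 2 lower and a median of 1.45, and ZBP1, TREX1 and the endosomal receptors TLR3, TLR7, TLR8 and TLR9 did not pass.

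The signalling genes moved less than the effectors. STAT2, a subunit of the complex, went from 10.4 ± 0.792 to 34.5 ± 4.22 FPKM and IRF7, the factor that amplifies interferon transcription, from 10.5 ± 1.12 to 59.9 ± 3.41 (SD, n = 4). The receptor genes IFNAR1 and IFNGR1 differed by 0.16 and -0.24, and IFNAR2 was not called at 1.27 and 1.41 FPKM. IRF1 rose by 0.20. IRF8, a factor of the monocyte lineage, fell by 1.38. No interferon gene listed passed the filter, whether IFNB1, IFNA1, IFNA2, IFNE, IFNG or IFNL1 to IFNL3, and neither did SOCS1, SOCS3 or IRF9. Of 29 genes listed, 16 passed, with 12 higher and 2 lower (median 0.43).

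Genes of antigen presentation by MHC class I rose in part. B2M, the light chain of class I molecules, measured 217, 229.8, 219.5 and 237 FPKM in WT and 612, 611, 635 and 659 in CES1KD libraries, and TAP1, which pumps peptides into the endoplasmic reticulum, rose by 1.68. HLA-B rose by 1.23, with the limit that its reads can be split with near-identical genes. ERAP1, a trimming peptidase, fell by 0.71, and CALR, a chaperone, was not called. Of 19 members that passed of 21 listed, 13 were higher and 3 lower (median 0.31). Only 5 of 13 class II genes passed, with 2 higher and 3 lower: CTSS, a protease that processes the invariant chain, rose by 0.67 and HLA-DRB1, also one of a near-identical group, fell by 1.04. Of the guanylate-binding proteins, 5 of 7 passed, GBP1 rose by 1.84 and GBP5 fell by 0.69.

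**Figure D2:**
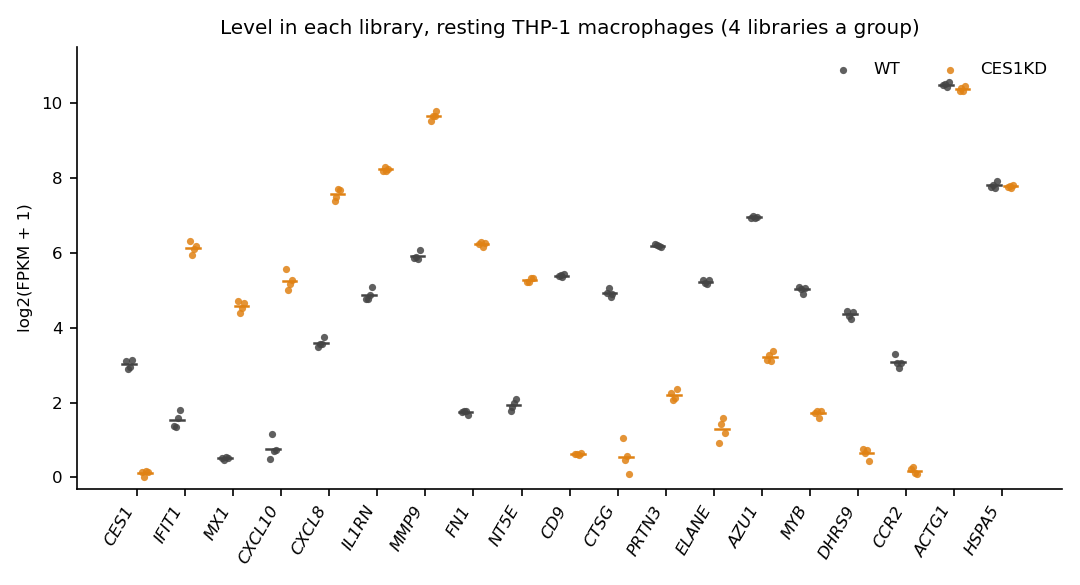
Each point is 1 library, as log2(FPKM + 1), with grey for the 4 WT and orange for the 4 CES1KD libraries of M0, and the bars are group means. Groups do not overlap for the genes from CES1 to CCR2, whereas ACTG1 and HSPA5 were not called.

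Chemokines split by family. CXC chemokines draw neutrophils or, for the CXCR3 ligands, activated T cells. CXCL8, the main neutrophil attractant of human macrophages, measured 10.1, 10.8, 10.9 and 12.5 FPKM in WT and 166, 180.3, 208 and 205 in CES1KD libraries. CXCL10, a CXCR3 ligand, was at 0.406, 1.23, 0.620 and 0.666 and at 46.4, 31.4, 35.2 and 37.4. They rose by 3.98 ± 0.08 and 4.49 ± 0.15 on the log2 scale, with every CES1KD library above every WT library. CXCL11, also a CXCR3 ligand, CXCL1 and CXCL3 were under 0.5 FPKM in each WT library and rose to means of 6.43, 3.19 and 1.44 FPKM, and PPBP rose by 2.05. Of 15 CXC genes, 7 passed, 3 of them through 1 group alone, with 6 higher and 0 lower (median 2.05), and CXCL2, CXCL9 and CXCL5 were among the 8 that did not pass.

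The CC chemokines went both ways, 4 higher and 6 lower of the 10 that passed (4 of them through 1 group alone) of 19 listed, with a median of -0.59. CCL20, a ligand of CCR6, measured 1.497, 1.26, 1.51 and 1.66 FPKM in WT and 19.0, 22.5, 22.9 and 26.1 in CES1KD libraries. CCL3 and its near copy CCL3L1, ligands of CCR1, rose by 2.44 and 2.58, and reads between the pair cannot be told apart. The monocyte attractants CCL2 and CCL7 fell, CCL2 from 5.07 ± 1.01 to 2.10 ± 0.425 FPKM and CCL7 from 3.67 ± 0.207 to 0.444 ± 0.327. CCL23 and CCL22 fell by 1.41 and 1.17, and CCL5, the most abundant of the list, went from 165 to 106 FPKM. CCR2, the receptor of CCL2 and CCL7 on monocytes, measured 8.76, 7.36, 6.57 and 7.33 FPKM in WT and 0.164, 0.203, 0.0912 and 0.0678 in CES1KD libraries. Every CES1KD library was far below the WT libraries, and the log2 difference was -2.91 ± 0.08 (limma adjusted p = 1.39e-09).

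In the interleukin 1 system the agonist, its antagonist and a receptor rose together. IL1B measured 19.4, 22.1, 20.5 and 22.95 FPKM in WT and 121, 137, 146 and 147 in CES1KD libraries. IL1RN, which encodes the receptor antagonist, was at 26.4, 26.4, 28.5 and 33.2 and at 288, 313, 292 and 303. IL1RN thus stood above IL1B in every library of both groups, and the groups were far apart for both, at 2.64 ± 0.07 and 3.34 ± 0.07 on the log2 scale. IL1R1, the signalling receptor, rose by 1.96 and CASP1, which activates IL-1 beta, by 1.33, while PYCARD (ASC), the inflammasome adaptor, fell by 0.77 and IL18 fell by 1.31. EBI3, a subunit of IL-27 and IL-35, rose by 1.95 and IL12A fell by 1.07. Of 26 cytokines, 12 passed, 3 through 1 group alone, with 8 higher and 2 lower (median 1.12). TNF, IL6, IL10 and IL12B were among the 14 that did not pass.

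Of 26 growth factors, 17 passed, with 13 higher and 3 lower (median 1.08), but 6 of the 17 passed through 1 group alone and had to differ. AREG, a ligand of the EGF receptor, rose by 2.37, INHBA, the activin A subunit, by 2.21 and VEGFA, the angiogenic factor, by 1.58. CSF1, the growth factor of macrophages, measured 8.18, 8.45, 7.72 and 7.43 FPKM in WT and 30.6, 34.9, 31.9 and 33.2 in CES1KD libraries. Its receptor CSF1R was at 125, 126, 123 and 132 and at 264, 273, 273 and 311. Ligand and receptor thus each rose with no overlap between the groups. TGFB1 rose by 0.62 and TGFBR1, a receptor chain for it, fell by 1.11. SPP1 (osteopontin), 1 of the most abundant transcripts of these cells, measured 2228, 2290.2, 2143 and 2541 FPKM in WT and 2845, 2703, 2722 and 2838 in CES1KD libraries, a small difference of 0.27 ± 0.07 without overlap. Among 35 chemokine and cytokine receptors, 25 passed, with 13 higher and 7 lower (median 0.13). ACKR3, a scavenging receptor for CXCL12, rose by 2.04, and CXCR2, a receptor for CXCL8, and CX3CR1, the fractalkine receptor, both fell by 1.47.

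NF-kB genes rose, inhibitors included. NF-kB dimers drive inflammatory genes and also their own inhibitors, which end the signal. TNFAIP3 (A20), an inhibitor that edits ubiquitin chains, measured 10.0, 10.9, 10.9 and 10.7 FPKM in WT and 43.8, 44.5, 46.4 and 43.0 in CES1KD libraries. NFKBIA, the inhibitor that holds NF-kB in the cytoplasm, rose by 1.35, NFKB2, a subunit, by 1.47, BCL3, a nuclear cofactor, by 1.73, TRAF1 by 1.88 and ICAM1, an adhesion molecule, by 1.53. TNIP1, a partner of A20, and TNFAIP2 each fell by 0.47. Of 23 listed, 21 passed, with 19 higher and 2 lower (median 0.67).

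Upstream of it, the receptors were divided. TLR2, a receptor for bacterial lipoproteins, rose by 1.33 and IRAK2, a kinase that sustains the signal, by 2.01, whereas IRAK3, which restrains it, fell by 1.13. The LPS co-receptors parted: CD14 rose by 0.33, LY96 (MD-2) went from 19.1 ± 1.04 to 7.94 ± 2.53 FPKM and CD180, an LPS receptor homologue, from 13.6 ± 0.669 to 3.45 ± 0.318. The CES1KD libraries for LY96 ranged from 4.75 to 10.5 FPKM, a wide spread. Of 17 listed, 14 passed, with 8 higher and 6 lower (median 0.39).

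Immediate early genes, which stimulated cells transcribe within minutes, rose almost throughout. IER3, an early gene that promotes survival, measured 3.74, 5.06, 6.04 and 5.47 FPKM in WT and 34.9, 37.4, 35.4 and 37.5 in CES1KD libraries. ATF3, a stress-induced repressor of inflammatory genes, was at 42.2, 41.3, 41.4 and 40.5 and at 149, 147, 158 and 153. The group means differed by 7.15 and 3.67 times. The AP-1 subunits JUN and FOS rose by 1.37 and 1.26, and DUSP1 and DUSP5, phosphatases that switch off MAP kinases, by 2.27 and 2.29. NR4A3, an orphan nuclear receptor, was under 0.5 FPKM in every WT library and averaged 5.94 ± 0.504 in CES1KD libraries. Of 28 listed, 25 passed, 3 of them through 1 group alone, with 23 higher and 0 lower (median 1.26). ZFP36, which speeds the decay of cytokine messages, and SGK1, a kinase, were the 2 not called, at 27.6 and 27.7 FPKM and at 55.8 and 57.1.

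**Figure D3:**
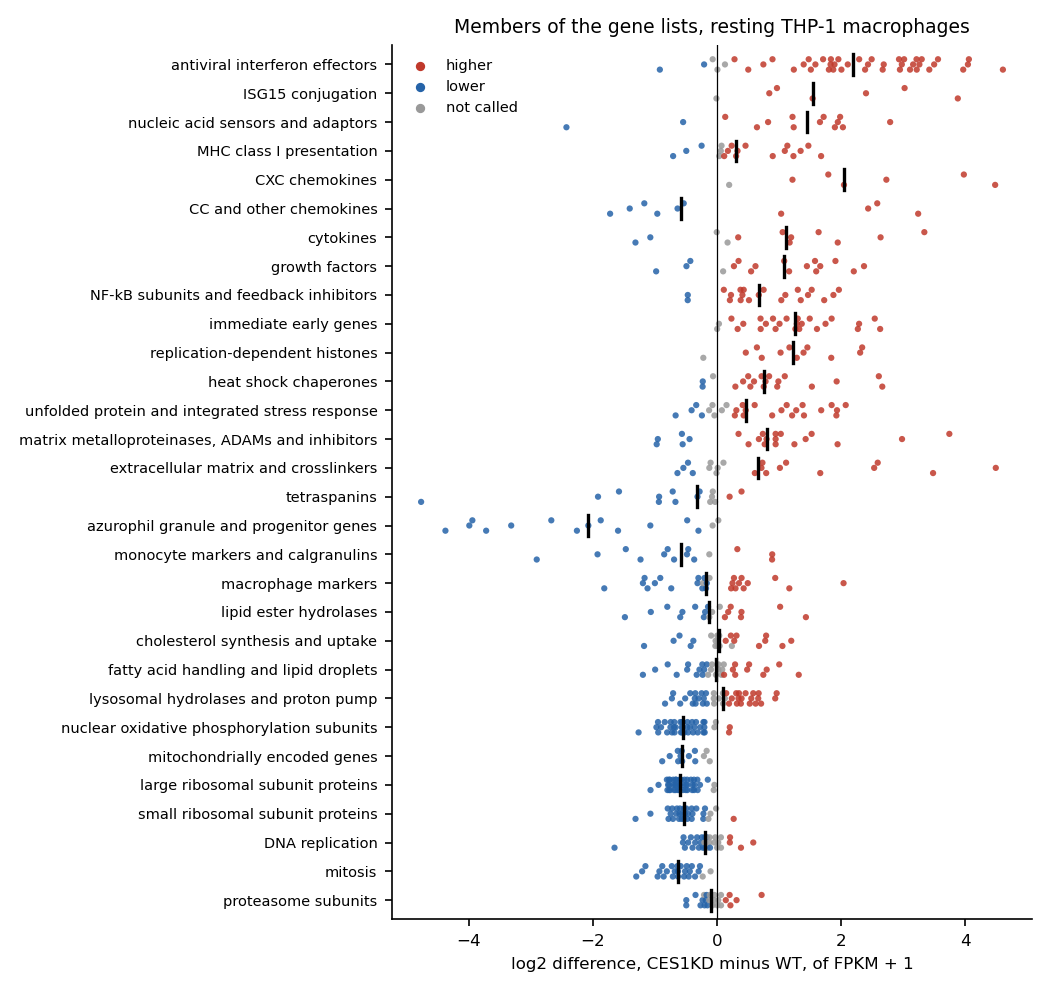
Each point is 1 gene that passed the filter, placed by its log2 difference of FPKM + 1, CES1KD minus WT, with 1 row per gene list and a black bar at the list's median. Red points were called higher, blue lower and grey not called. The antiviral row has its median at 2.20, the azurophil granule row at -2.07, and ribosomal and oxidative phosphorylation rows lie together between -0.53 and -0.60.

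Most genes that build or cut the matrix and that changed were higher. FN1 (fibronectin), which links cells to collagen, measured 2.36, 2.39, 2.40 and 2.18 FPKM in WT and 73.8, 77.7, 69.9 and 75.6 in CES1KD libraries. COL22A1, a collagen of tissue junctions, was at 2.32, 2.10, 1.78 and 2.02 and at 30.7, 33.7, 33.9 and 34.2. The 4 libraries of each group kept close together, and the differences of 4.50 ± 0.04 and 3.48 ± 0.06 had limma adjusted p of 2.71e-12 and 8.01e-11. COL6A1 and COL6A2, chains of collagen VI, rose side by side, by 2.54 and 2.59. Of 31 matrix genes, 20 passed, with 11 higher and 4 lower (median 0.66), and the fibroblast collagens COL1A1, COL1A2 and COL3A1 did not pass.

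MMP9, a gelatinase, measured 57.4, 57.8, 56.3 and 66.1 FPKM in WT and 736, 811, 811 and 884 in CES1KD libraries, a rise exceeded in absolute level only by FTL and IFI6 among the protein-coding genes called without overlap. MMP14, which activates MMP2 at the cell surface, was at 589, 584, 562 and 579 and at 1088, 1105, 1127 and 1146. The inhibitor TIMP1 rose as well, from 311 ± 15.6 to 601 ± 28.5 FPKM, while TIMP2, the cofactor through which MMP14 activates MMP2, fell by 0.56. MMP19 and MMP8 rose by 2.98 and 1.43. Of 30 proteases and inhibitors, 21 passed, with 16 higher and 5 lower (median 0.80).

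At the cell surface, CD9 had the largest fall of any gene kept on the log2(FPKM + 1) scale. CD9 is a tetraspanin that organises membrane partners and restrains cell fusion. It measured 40.7, 41.5, 39.9 and 41.9 FPKM in WT and 0.540, 0.545, 0.504 and 0.571 in CES1KD libraries. The CES1KD values all lay between 0.504 and 0.571, a log2 difference of -4.77 ± 0.04 (limma adjusted p = 8.74e-13), and the mean was 76.0 times lower. By the ratio of means, low genes fell further, among them PCDHGA12 (156 times) and RHEX (110.2 times). In bulk RNA, fewer cells with the transcript and less of it in each cell cannot be told apart. Among other tetraspanins, TSPAN32 and CD82 fell by 1.92 and 0.94, CD81 rose by 0.20, and CD53 was not called at 182 and 178 FPKM. Of 17 listed, 15 passed, with 2 higher and 9 lower (median -0.31). Among adhesion molecules, ITGB7, an integrin chain, rose by 1.76, ITGAM (CD11b) fell by 0.74 and ITGB2, its partner, was not called at 471 and 505 FPKM (22 of 29 passed, 14 higher and 3 lower, median 0.26). In the actin list, 34 of 36 passed with 14 higher and 13 lower (median 0.035). PDLIM4, an actin-associated adaptor, measured 16.6, 16.0, 16.1 and 16.4 FPKM in WT and 0.880, 1.11, 0.978 and 1.38 in CES1KD libraries.

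The granule proteases of promyelocytes fell together. CTSG (cathepsin G), ELANE (neutrophil elastase), PRTN3 (proteinase 3) and AZU1 (azurocidin) are serine proteases, the last without activity, that are stored in azurophil granules. PRTN3 measured 73.9, 72.6, 71.8 and 70.7 FPKM in WT and 3.79, 3.20, 3.37 and 4.11 in CES1KD libraries. ELANE was at 37.5, 35.4, 35.1 and 37.7 and at 0.895, 1.70, 1.99 and 1.28, and CTSG at 29.5, 32.4, 27.0 and 29.1 and at 1.08, 0.377, 0.496 and 0.0737. For all 3, every CES1KD library lay far below every WT library. AZU1, the most abundant of these proteases, went from 122 ± 2.81 to 8.39 ± 0.811 FPKM. PRTN3, ELANE and AZU1 lie next to each other on chromosome 19, as does CFD (complement factor D), which fell from 127 ± 8.40 to 19.3 ± 3.22 FPKM. PLPPR3, from outside this list, lies beside AZU1 and fell as well, from 26.3 ± 1.68 to 0.833 ± 0.104 FPKM. SRGN (serglycin), the proteoglycan that packs granule proteases, was 679, 743, 683 and 771 FPKM in WT and 233, 229, 247 and 239 in CES1KD libraries. MYB, the factor that keeps myeloid progenitors immature, was at 33.1, 31.8, 29.1 and 32.4 and at 2.27, 2.39, 2.01 and 2.40. These fell by 1.59 and 3.32 on the log2 scale, with no overlap. FLT3, a receptor of early progenitors, fell by 1.87. Of 20 listed, 15 passed, with 0 higher and 13 lower (median -2.07), and 11 fell at least 2-fold. CLEC11A, a growth factor, and GFI1, a repressor of the granulocyte lineage, were not called, at 148 and 151 and at 35.5 and 33.8 FPKM, and MPO and CD34 did not pass.

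Most transcription factors that direct myeloid cells rose. CEBPB, a factor of inflammatory and emergency responses, rose by 1.57 and SPI1 (PU.1) by 0.47, while CEBPA, a factor of the granulocyte path, fell by 0.65. GATA2, a factor of progenitors and mast cells, measured 12.6, 11.8, 10.96 and 11.002 FPKM in WT and 1.09, 1.38, 1.21 and 1.07 in CES1KD libraries, 9.78 times lower in the mean. Of 33 listed, 30 passed, with 22 higher and 4 lower (median 0.41).

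The lists of monocyte and macrophage genes went both ways. Of 18 monocyte genes, 14 passed, with 3 higher and 10 lower (median -0.59), while their summed level was 948 to 1031 FPKM in WT and 1153 to 1268 in CES1KD libraries. Of 36 macrophage genes, 26 passed, 2 through 1 group alone, with 11 higher and 13 lower (median -0.17). The 9 cell type markers of macrophages and monocytes that passed had 5 higher and 4 lower (median 0.25, and -0.105 without chromosomes 1, 5 and 8). LYZ (lysozyme) went from 11.8 ± 0.993 to 2.38 ± 0.422 FPKM and CD36, a receptor for oxidised lipoproteins, from 39.2 ± 2.18 to 22.2 ± 0.541. S100A11, a calcium-binding protein, rose from 462 ± 25.7 to 857 ± 46.7. CD163, the haemoglobin scavenger receptor, measured 3.02, 2.67, 2.78 and 3.42 FPKM in WT and 15.2, 14.4, 15.9 and 15.7 in CES1KD libraries. GPNMB, a glycoprotein of lipid-laden macrophages, was at 68.6, 67.2, 65.3 and 74.1 and at 19.2, 17.4, 18.4 and 20.4. CD163 thus rose and GPNMB fell, each without overlap. TREM2, a lipid receptor, rose by 0.30, and CD52, a small surface glycoprotein, fell from 614 ± 14.5 to 178 ± 17.8 FPKM.

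In the complement system the central component and a receptor rose and another receptor fell. C3 went from 5.57 ± 0.119 to 36.4 ± 1.83 FPKM and C5AR1, the receptor for C5a, from 45.2 ± 2.57 to 239 ± 15.4, while C3AR1, the receptor for C3a, went from 21.8 ± 2.89 to 8.32 ± 0.531 (11 of 19 passed, 3 through 1 group alone, 2 higher and 7 lower, median -0.65). FCGR1A, the high-affinity IgG receptor, which has near-identical copies, fell by 1.27 (12 of 15 in its list passed, 4 higher and 6 lower, median -0.26). CLEC12A, an inhibitory lectin, and LILRA2 fell by 1.92 and 1.44 (16 of 27 receptors passed, 3 through 1 group alone, 5 higher and 10 lower, median -0.47).

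Other enzymes that cleave lipid esters, the class to which CES1 belongs, moved in both directions. LPL (lipoprotein lipase) measured 199, 208, 200.03 and 217 FPKM in WT and 564, 568, 544 and 555 in CES1KD libraries. LIPA, the lysosomal acid lipase that frees cholesterol from its esters, was at 236, 245, 235 and 268 and at 157, 166, 164 and 165. LPL rose by 1.43 ± 0.04 and LIPA fell by 0.59, both without overlap. NCEH1, a neutral cholesteryl ester hydrolase, fell by 0.80. Of the other carboxylesterases, CES2 rose by 0.39 and CES3, which lies on the same chromosome as CES1, went from 2.05 ± 0.285 to 0.0923 ± 0.110 FPKM, while CES4A and CES5A did not pass the filter. Of 29 hydrolases listed, 19 passed, with 7 higher and 9 lower (median -0.12).

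Sterol and fatty acid genes moved both ways, as did the genes kept as a whole. Called were 60.9% of the cholesterol, 68.8% of the LXR and sterol transport and 71.0% of the fatty acid genes. The share of all genes was 67.5%, with 34.9% higher and 32.6% lower, so these counts set the lists little apart. In cholesterol synthesis, SQLE (squalene epoxidase) rose by 1.198 and INSIG1, which retains the sterol sensor, by 1.06, while STARD4, a sterol carrier, fell by 1.18. Of 26 listed, 23 passed, with 9 higher, 5 lower and 9 not called (median 0.037). ABCA1, the cholesterol exporter, rose by 1.29, and the lipoproteins APOE and APOC1 fell by 0.20 and 1.17 (16 of 20 LXR and sterol transport genes passed, 5 higher and 6 lower, median -0.043). PLIN2, which coats lipid droplets, rose by 1.32 and PPARG by 0.52, FABP4, a fatty acid carrier, fell from 77.2 ± 6.08 to 33.2 ± 1.49 FPKM, FADS2, a desaturase, fell by 1.00, and FASN and SCD, which make fatty acids, were not called, although both were called lower after rescaling or centring (31 of 40 passed, 10 higher and 12 lower, median -0.017).

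In the lysosome, 42 of 43 listed genes passed, with 19 higher, 16 lower and 0 beyond 2-fold (median 0.098). PPT1, a thioesterase that removes palmitate from proteins, measured 1065, 1059, 1031 and 1165 FPKM in WT and 587, 623, 592 and 614 in CES1KD libraries. CTSZ, a cathepsin, rose by 0.94, and PSAP, the precursor of the saposins, was not called at 552 and 591 FPKM. Among eicosanoid genes, PTGER4, a prostaglandin E receptor, rose by 1.199 and LTC4S, which makes leukotriene C4, fell by 1.90 (15 of 25 passed, 5 higher and 7 lower, median -0.084). DHRS9, a short-chain dehydrogenase that acts on retinol, measured 20.6, 19.0, 17.8 and 20.5 FPKM in WT and 0.695, 0.563, 0.666 and 0.364 in CES1KD libraries, and CRABP2, which carries retinoic acid, rose by 1.91 (10 of 21 passed, 4 higher and 3 lower, median 0.037). NT5E (CD73), which makes adenosine outside the cell, was at 2.42, 2.71, 2.93 and 3.23 FPKM in WT and at 36.2, 36.2, 39.1 and 38.8 in CES1KD libraries. It rose by 3.34 ± 0.06 with no overlap, in a purine list with 15 of 20 passed, 5 higher and 6 lower (median -0.020). SUCNR1, the succinate receptor, fell from 36.6 ± 2.72 to 4.22 ± 0.372 FPKM. TDO2, which opens the tryptophan ring, rose from 16.5 ± 1.15 to 116 ± 4.10.

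Stress genes rose in the cytosolic branch. HSPH1, a chaperone that recharges HSP70, measured 34.5, 33.5, 32.9 and 37.1 FPKM in WT and 96.8, 105, 99.7 and 105 in CES1KD libraries. HSPB7, a small heat shock protein, rose by 2.67 and HSPA1B by 2.61, although reads of HSPA1B and its near-identical neighbour HSPA1A cannot be told apart. HSPA6, a strictly inducible HSP70, was under 0.5 FPKM in every WT library and averaged 6.04 ± 0.951 in CES1KD libraries. Of 20 chaperones, 19 passed, with 16 higher and 2 lower (median 0.75). Of chaperones in the endoplasmic reticulum, HSPA5 (BiP) was not called at 217, 224, 213 and 242 and 216, 220.1, 212 and 224 FPKM, and HSP90B1 fell by 0.67. In the integrated stress response, which answers to amino acid shortage, DDIT4 rose by 2.08, SLC7A5, an amino acid transporter, by 1.68 and ATF4, the central factor, by 0.29 (27 of 28 genes of the unfolded protein and integrated stress responses passed, 2 through 1 group alone, 18 higher and 4 lower, median 0.46).

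Among oxidative stress and iron genes, SLC7A11, the cystine importer, rose by 2.22 and HMOX1 (heme oxygenase 1) from 40.0 ± 1.28 to 98.0 ± 6.396 FPKM (18 of 24 NRF2 targets passed, 12 higher and 5 lower, median 0.40). FTL, a chain of the iron store ferritin, measured 4989.6, 4860.0, 4752 and 5159 FPKM in WT and 7759.8, 8421, 8596 and 9131 in CES1KD libraries. FTH1, the other chain, was at 536, 546, 483 and 560.4 and at 966, 1041, 1242 and 1307. Both were higher in every CES1KD library, with the limit that ferritin has processed copies in the genome (14 of 18 iron genes passed, 7 higher and 6 lower, median 0.16). In the list of metallothioneins and zinc transport, MT2A went from 58.6 ± 6.66 to 31.4 ± 3.21 FPKM, and MT1G, 1 of a family of near-identical genes, was at 2.07, 2.41, 1.95 and 2.09 in WT and listed at 0 in each CES1KD library (9 of 15 passed, 2 through 1 group alone, 4 higher and 5 lower, median -0.62). Replication-dependent histone transcripts rose in 11 of the 12 that passed of 14 listed, with 0 lower (median 1.23). HIST1H2AC, HIST2H2BE and HIST1H1C rose by 2.34, 2.31 and 1.84, and these genes have near-identical copies.

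Most ribosomal protein genes and most genes of oxidative phosphorylation were lower. Of 44 proteins of the large ribosomal subunit, all passed and 42 were lower, 0 higher (median -0.60). Of 32 of the small subunit, 31 passed, with 27 lower and 1 higher (median -0.53). RPL7 and RPL5 fell by 1.07 and 0.94, and RPS23 and RPS14, both on chromosome 5, fell by 1.31 and 1.07. RPS27 was the 1 that rose, by 0.27. Of 44 nuclear subunits of oxidative phosphorylation, 41 passed, with 37 lower and 2 higher (median -0.55), and NDUFA2 and COX7C, both on chromosome 5, fell by 1.26 and 0.95 while SDHA rose by 0.21. All 13 mitochondrially encoded proteins passed, with 10 lower and 0 higher (median -0.56). MT-CO3, a subunit of complex IV, measured 1718, 2361, 2287 and 2041 FPKM in WT and 1102, 1084, 1149 and 1192 in CES1KD libraries. The mitochondrial share of the fragments moved with these lists, at 1.81 to 2.39% in WT and 1.29 to 1.48% in CES1KD libraries. Short genes were lower too: among protein-coding genes of at most 1000 bases the median difference was -0.20, against 0.067 in the class of the longest genes. Of 75 ribosomal protein genes, 1 was at or under 1000 bases, and their median length was 3109 against 5083 for all protein-coding genes kept. The part of gene length and of library composition in these falls was not tested, and ribosomal protein genes also have many processed copies. The labels give a minimum RNA integrity number, a score of RNA quality, of 4, and the part of RNA quality was not tested either.

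Cell cycle genes were lower, most of all those of mitosis. All 26 mitotic genes passed, with 24 lower and 0 higher (median -0.63). CCNB1 (cyclin B1), which starts mitosis, and HMMR, a spindle protein, both on chromosome 5, fell by 1.15 and 1.30, and MKI67, the proliferation marker, fell from 18.6 ± 1.36 to 13.3 ± 1.15 FPKM. All 32 replication genes passed, with 17 lower and 4 higher (median -0.19). DNMT1, the maintenance methyltransferase, rose by 0.59. CDKN1A (p21), an inhibitor of the cycle, rose by 0.56, and CDKN2C (p18) fell by 1.24 (21 of 24 inhibitors and p53 targets passed, 6 higher and 13 lower, median -0.28). Among apoptosis genes, MCL1, which protects, rose by 1.13, and BIK, which promotes death, fell from 18.2 ± 0.974 to 2.65 ± 0.569 FPKM (25 of 27 passed, 15 higher and 5 lower, median 0.21).

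The other lists follow by their counts, to be read against 34.9% higher and 32.6% lower among all genes kept. Glycolysis and hypoxia had 20 higher and 6 lower of 33 that passed (median 0.20), nuclear receptors 12 and 2 of 18 (median 0.29), amino acid enzymes and transporters 10 and 4 of 17 (median 0.58), and Notch and Wnt genes 11 and 6 of 19 (median 0.48). TGF-beta and BMP genes had 11 higher and 7 lower of 20 (median 0.24), and inflammasome genes 6 and 1 of 9 (median 0.27). Autophagy genes (7 higher and 8 lower of 22, median -0.015), proteasome subunits (5 and 9 of 24, median -0.093) and the small RNA machinery (5 and 3 of 12, median 0.064) complete them. Members that passed through 1 group alone, and had to differ, also numbered 2 each in the lists of chemokine and cytokine receptors, tetraspanins, nuclear receptors, purine genes, iron genes, cell cycle inhibitors, amino acid genes, TGF-beta genes and Notch and Wnt genes.

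The largest changes in absolute level fell on abundant transcripts. After FTL, IFI6, MMP9 and FTH1, the highest rises in mean FPKM belonged to MMP14, SPP1, HSP90AB1 (from 654 to 1126), B2M, S100A11 and SMAP2 (from 349.5 to 740.2). Among protein-coding genes called without overlap, to which these rankings are limited, the largest falls belonged to 4 mitochondrial genes, MT-CO1, MT-CO3, MT-CO2 and MT-ATP6, to ACTB, TMSB4X and EEF1A1, and to SRGN, PPT1 and CD52. ACTB (beta actin) measured 3595, 3702, 3465 and 3956 FPKM in WT and 2519.9, 2715, 2446 and 2912 in CES1KD libraries, and TMSB4X (thymosin beta 4), which holds actin monomers, fell from 2195 ± 132 to 1238 ± 64.1. EEF1A1, the elongation factor, fell from 1426 ± 70.7 to 866 ± 32.4. At the other end, 39 of the 218 genes with a mean of at least 100 FPKM in both groups had a 95% interval of the difference within 0.25 of 0. The most abundant of these were ACTG1, PSAP, ITGB2, CALR, ZMPSTE24, RHOA, HSPA5, BSG, DAD1 and CD53, of which DAD1 was called, at -0.15. After rescaling to total fragments ACTG1, RHOA, HSPA5, BSG and CD53 were called lower as well. ACTG1 (gamma actin) stood at 1425, 1461, 1379 and 1515 FPKM in WT and 1275, 1344, 1269 and 1415 in CES1KD libraries.

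Some genes were very low in 1 line and clearly present in the other. Such genes are called off below, which means low and not absent: MX1 still had 279 fragments summed over the WT libraries. Genes picked in this way had to differ. By the criterion of under 0.5 FPKM in every library of a group and a mean of at least 2 in the other, 33 genes were off in WT (27 of them protein-coding) and 52 off in CES1KD cells (41 protein-coding). Among those off in WT were MX1, IFI44L, CXCL11, HSPA6 and NR4A3, already given, with MAGEB2, POU4F2 and NPR1. MAGEB2, a cancer-testis antigen, measured 0.111, 0.0249, 0.209 and 0.0749 FPKM in WT and 6.66, 9.77, 9.16 and 9.49 in CES1KD libraries. POU4F2, a transcription factor known from retinal neurons, was at 0.133, 0.408, 0.196 and 0.307 and at 9.65, 10.4, 9.47 and 8.92, and NPR1, a natriuretic peptide receptor, at 0.274, 0.200, 0.325 and 0.217 and at 4.84, 5.55, 5.25 and 5.01. All 3 were thus near 0 in WT and clearly present in every CES1KD library. Among those off in CES1KD cells were CES1, CCR2, MLC1, RHEX, PCDHGA12, AOC1, HTRA1 and RAB44. MLC1, a membrane protein of astrocytes, went from 13.9 ± 0.864 to 0.225 ± 0.121 FPKM, RHEX, a regulator of erythroid expansion, from 13.2 ± 0.917 to 0.119 ± 0.0451, and HTRA1, a secreted protease, from 6.19 ± 0.476 to 0.0878 ± 0.121. AOC1, which oxidises diamines, went from 7.82 ± 0.387 to 0.115 ± 0.0458. PCDHGA12 overlaps the other genes of the gamma protocadherin cluster, so reads behind its fall from 9.60 ± 0.522 to 0.0616 ± 0.0553 FPKM cannot be told apart from those of its neighbours.

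Several more genes with large falls have roles outside the lists. FAR2, which reduces fatty acids to alcohols, measured 168, 174, 163 and 180.3 FPKM in WT and 16.2, 16.4, 16.4 and 15.5 in CES1KD libraries. TAC4, a tachykinin precursor, was at 30.3, 29.3, 29.9 and 28.4 and at 1.02, 0.557, 0.907 and 0.657. Both groups were tight and far apart. DYSF (dysferlin), which repairs membranes, went from 18.1 ± 0.860 to 0.625 ± 0.106 FPKM, SCIN, which severs actin, from 15.2 ± 0.328 to 0.585 ± 0.139 and LRG1, a leucine-rich glycoprotein, from 27.3 ± 1.10 to 2.83 ± 0.686. PLPPR3, NMUR1, PPP1R27 and CPVL fell by 3.895, 3.21, 2.86 and 2.83.

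On the log2(FPKM + 1) scale, the largest difference of all was in a long non-coding gene. AC079466.1, on chromosome 19, measured 1.00, 1.25, 1.13 and 0.650 FPKM in WT and 115, 103, 98.6 and 100.1 in CES1KD libraries. The CES1KD mean was 103 times the WT mean, with no overlap, a log2 difference of 5.72 ± 0.09 (limma adjusted p = 7.18e-11). LINC02244 rose by 2.34, and AC015660.2, AL513283.1, AL161421.1 and AC078776.1 by 2.16, 1.98, 1.94 and 1.83. AL713998.1, an abundant long intergenic gene, fell from 609 ± 10.2 to 136 ± 3.40 FPKM. AL023693.1, LINC01088, AL596442.1, AC012150.1 and PLCL2-AS1 fell by 3.14, 2.32, 2.22, 2.05 and 2.04. No source used here says whether counting used the strand, so reads of the antisense genes (AC015660.2, AL161421.1, AL023693.1, LINC01088, AL596442.1 and PLCL2-AS1) and of genes on the opposite strand cannot be told apart.

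Some chromosomes held long stretches of genes shifted in 1 direction. On chromosome 5, 356 of 565 genes were lower and 122 higher (median -0.39). The stretch up to 40 Mb went the other way, with 30 of 39 genes higher from 0 to 20 Mb (median 0.72) and 22 of 30 higher from 20 to 40 Mb (median 0.45). From 60 Mb on, every window of 20 Mb had a median between -0.41 and -0.52. On chromosome 1, 155 of 196 genes from 140 to 160 Mb were higher (median 0.57), and on chromosome 8, 36 of 45 genes from 0 to 20 Mb (median 0.51) and 66 of 85 from 20 to 40 Mb (median 0.43) were higher. TMEM173, CD180, PDLIM4, ERAP1, TNIP1, PCDHGA12, LTC4S, STARD4, RPS14, RPS23, NDUFA2, COX7C, CCNB1 and HMMR, all lower above, lie on chromosome 5. CSF1R, DUSP1, PTGER4, CD14, IRF1 and SDHA, all higher above, lie there too. S100A11, CTSS, NPR1, CRABP2, MCL1, HIST2H2BE and RPS27, all higher above, and FCGR1A, lower, lie in the stretch of chromosome 1, and LPL in that of chromosome 8. The part of gene copy number in these shifts was not tested.

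**Figure D4:**
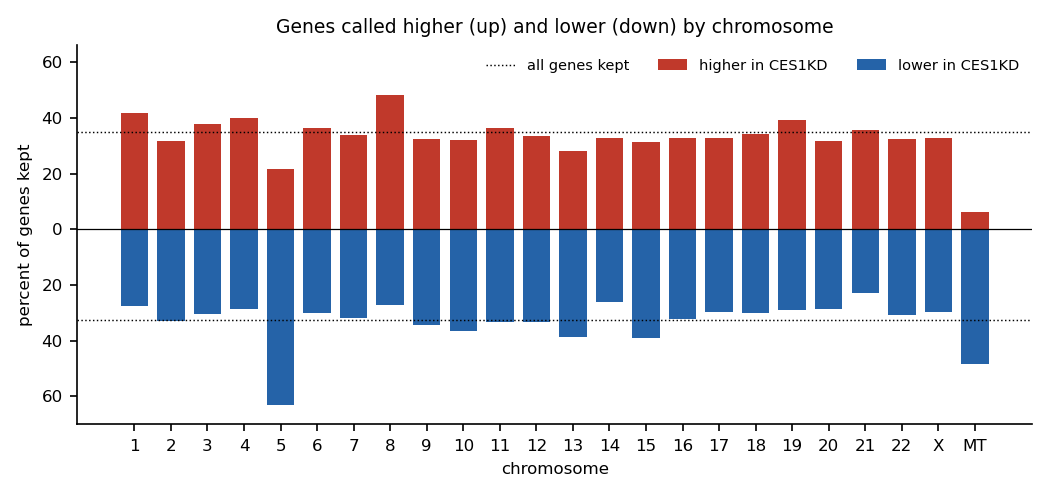
Bars above 0 give the percent of a chromosome's kept genes that were called higher in CES1KD cells and bars below 0 the percent called lower, with dotted lines at 34.9% and 32.6%, the values for all genes kept. Chromosome 5 stands out with 63.0% lower and 21.6% higher, and chromosome 8 has 48.2% higher.

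The difference between the lines, called the knockdown effect below without crediting it to CES1, was set at rest against that after stimulation. Both came from 1 fit over all 24 libraries, with tests of the difference between effects. The resting, M1 and M2 comparisons share no libraries, but they do share the cell lines. Of the 11964 genes, 2954 (24.7%) had a different effect in M1 from that in M0 and 782 (6.54%) a different effect in M2. Between the lines, 7149 of all genes kept (59.8%) were called in M1 and 6521 (54.5%) in M2. Of the 1092 genes that changed at least 2-fold at rest, 979 were called in the same direction in M1. In the opposite direction were 7, and 106 were not called. In M2 these counts were 1043, 5 and 44. The 1092 genes were chosen by a large difference between the same lines, so their shares cannot be read as independent of that choice. Across genes the effects correlated at r = 0.774 between M0 and M1 and at 0.905 between M0 and M2, as a description. The median of the 46 antiviral effectors was 2.20 in M0, 1.99 in M2 and 0.36 in M1, and the effect was lower in M1 than in M0 for 40 of them and in M2 for 5. For IFIT1 the log2 difference between the lines was 4.61 in M0, 4.32 in M2 and 0.83 in M1. CXCL10 fell from 4.49 to 0.28 in M1, SIGLEC1 from 3.97 to 0.48 and IFI44L from 3.22 to -0.099. PRTN3 was lower in every state, at -3.99, -3.53 and -4.19 in M0, M1 and M2, and CD9 was at -4.77, -3.70 and -4.49.

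Some genes changed direction. FABP4, lower at rest (-1.19), was higher in M1 (1.02). The neuropeptide NTS, which fell from 11.9 ± 1.10 to 1.43 ± 0.523 FPKM at rest (-2.43), was higher in CES1KD cells in M2 (1.15), and SERPINE2, a protease inhibitor, went from -1.36 at rest to 0.36 in M2. CCL1 was low at rest, at 1.62 ± 0.160 FPKM in WT and 0.819 ± 0.291 in CES1KD libraries (-0.54). Its log2 difference was -4.35 in M1 and -2.55 in M2. At so low a resting level, log2(FPKM + 1) leaves little room for a fall. FN1 rose less after stimulation, at 2.16 in M1 and 2.59 in M2, and IL1R1, at 1.96 at rest, was at 1.85 in M1 and 0.16 in M2. TMEM173 held at -2.43, -2.40 and -2.42 in the 3 states.

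**Figure D5:**
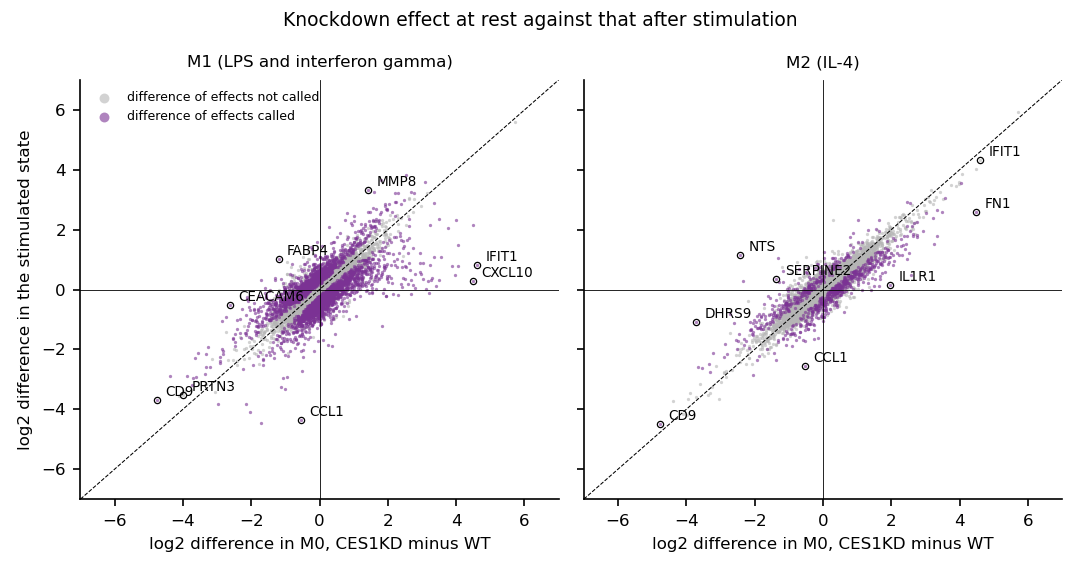
Each point is 1 gene. The knockdown effect (CES1KD minus WT) at rest is on the horizontal axis. That in M1 (left) or M2 (right) is on the vertical axis, both as log2 differences of FPKM + 1. Purple marks genes whose effects differed between the states, 2954 in M1 and 782 in M2, and the dashed line marks equal effects. IFIT1 and CXCL10 lie far below the line in M1, and NTS lies above it in M2.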

How the data were processed

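RNA was measured by sequencing in 8 resting (M0) libraries, 4 per group, and in 16 stimulated ones used only for the comparison of states. The authors deposited 1 table of FPKM per gene; the submitters' processing notes name CASAVA, HISAT2 and DESeq without roles or versions, and no source used here says whether counting used strand. FPKM times gene length gave whole fragments for 100% of values (tolerance 1e-06 of a step), so depth was recovered. The divisor behind FPKM was 1.09 to 1.14 times the fragments on genes in WT and 1.04 to 1.08 times in CES1KD libraries. Coordinates equal GENCODE 29 for 58690 of 58735 genes. Some symbols in the table were turned into dates, so genes were matched by ID.

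Genes were tested with limma 3.58.1 (R 4.3.3; trend; log2(FPKM + 1), which understates changes of low genes), with Benjamini-Hochberg adjustment over all genes kept. Means are given ± SD (n = 4) and log2 differences ± SE. Tables and plots used Python 3.11.15, pandas 2.3.3, numpy 2.4.6, scipy 1.17.1 and matplotlib 3.10.9. Promoters came from RefSeq and matched 8426 of the 10435 protein-coding genes kept. The members, gene lists and tests were chosen with earlier results of these data known. Genes named are CES1, the 25 highest and 25 lowest protein-coding differences, the 10 largest rises and falls in FPKM, 6 non-coding genes each way, genes on in 1 group, steady genes, members at the ends of each list and genes whose effect differed most between states; a few others were chosen after their values were seen. Some genes are not reported here. Alternatives were another pseudocount, other filters, other scalings, voom on recovered fragments, a replicate block, all 24 libraries, each library left out, and chromosomes 1, 5 and 8 left out.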

Additional observations from a re-analysis of the deposited data

Results flagged for a closer look

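In groups of 4 libraries, 1 library stood apart from the other 3 by more than Dixon's 95% critical value in 21 of the 528 groups tested (3.98%), and chance flags about 1 in 20 groups. In CES1KD libraries these were replicate 1 for PPBP (4.43 FPKM), JUN (113), COL22A1 (30.7), CTSZ (265) and AL513283.1 (3.04). Replicate 2 stood apart for CES1 (0), CCL23 (0.648) and PLCL2-AS1 (0.128), replicate 3 for RHEX (0.0520), and replicate 4 for CES2 (16.4), CES3 (0.256) and LINC02244 (35.3). In WT libraries, replicate 1 stood apart for TRAF1 (1.21 FPKM), replicate 2 for GBP5 (1.62) and replicate 3 for EBI3 (0.874). Replicate 4 stood apart for AREG (0.987), SGK1 (57.8), MMP9 (66.1), TIMP1 (335), FN1 (2.18) and DAD1 (210.4).

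The knockdown effect differed between states for the genes that follow, by limma's interaction term with adjusted p from 7.17e-14 (IFIT1) to 9.07e-07 (CCL20). The effect was lower in M1 than in M0, on the log2 scale, for CXCL10 (-4.21), CCL1 (-3.82), IFIT1 (-3.79), SIGLEC1 (-3.49) and IFI44L (-3.32). It was higher in M1 for FABP4 (2.21), CEACAM6 (2.09), CD180 (2.02), MMP8 (1.89) and TMEM37 (1.86). It was lower in M2 than in M0 for IL4I1 (-2.09), CCL1 (-2.02), FN1 (-1.90), IL1R1 (-1.80) and CCL20 (-1.72). It was higher in M2 for NTS (3.58), DHRS9 (2.62), HTRA1 (1.92), SERPINE2 (1.72) and GJA1 (1.54). CCL1 was low at rest (1.62 FPKM in WT and 0.819 in CES1KD libraries), where log2(FPKM + 1) leaves little room for a fall.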

How the results depend on the processing

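Of 263 genes named, 236 kept their direction and their side of the threshold in every alternative, and of 3682 gene alternatives 3618 did so, 39 moved past the threshold, 9 dropped below it and 16 reversed. All 16 reversals were of genes not called. The 39 gained calls were of SAMHD1, ACTG1, GFI1, SCD, FASN, HSPA5, PSAP, ITGB2, CALR, ZMPSTE24, RHOA, BSG, CD53 and PDGFRA. Rescaling to total fragments gave SGK1 -0.048, ZFP36 -0.076, CLEC11A -0.059, CALR -0.0075 and ZMPSTE24 -0.0046; centring gave ZFP36 -0.024 and CLEC11A -0.0055, and voom gave ZFP36 -0.012. Leaving out each library gave UBA7 -0.105 to 0.053, ZFP36 -0.032 to 0.052 and CLEC11A -0.0097 to 0.051. List medians kept their value in 788 alternatives, moved in 90 and reversed in 5: rescaling gave actin -0.043, cholesterol -0.030 and retinoid genes -0.042, and leaving out chromosomes 1, 5 and 8 gave fatty acid genes 0.072 and the macrophage and monocyte markers -0.105 instead of 0.25. The median of all genes moved to -0.063 after rescaling and to -0.024 after centring.

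Called genes numbered 5089 instead of 8081, lower genes 2290 instead of 3901, 2-fold genes 620 instead of 1092, and effects that differed 1898 (M1) and 493 (M2) with a mean of at least 5 FPKM required, where fewer genes were tested. With a pseudocount of 0.1 there were 1654 2-fold genes and with voom 1729, and the cause was not tested. Voom on recovered fragments called 8314 genes. Leaving out 1 library gave 7631 to 7941 called genes, 3962 to 4127 higher, 3669 to 3826 lower, 1057 to 1103 at 2-fold, 2630 to 3721 (M1) and 631 to 1066 (M2) differing effects, and CES1 at -2.95 to -2.87, against -5.38 with a pseudocount of 0.1 and -7.09 with voom. The highest counts of differing effects came without CES1KD M2 replicate 2. Of the 8081 genes, 7261 were called the same way without each of the 8 libraries.

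Deviations of same-numbered libraries correlated at r of 0.0011, 0.017, -0.034 and 0.051, within the -0.18 to 0.14 of differently numbered ones. So few values cannot settle whether the numbers pair the libraries. A replicate block called 7945 genes in M0, 3206 effects differing in M1 and 892 in M2, against 8081, 2954 and 782 without it.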
